A study of Mus musculus with 6 samples.

Results

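Oxidative phosphorylation (OXPHOS) genes of the nucleus were examined in ATAC-seq peak lists of mouse spermatogonia with and without SIRT7. They were chosen by symbol among the 21887 protein-coding genes that the RefSeq table of the mouse genome (GRCm38) places on chromosomes 1 to 19, X and Y. A gene was a member if its symbol began with Nduf, Uqcr or Atp5, was one of Sdha to Sdhd, or began with Cox followed by a number. The rule itself uses no measured value. The rule gave 105 genes, of which 47 belonged to complex I, 4 to complex II, 8 to complex III, 29 to complex IV and 17 to complex V. Among them were 84 subunits and 17 assembly factors. A strand, and hence a 5′ end, was known for 104 members and for 21467 protein-coding genes. Atp5mpl, an ATP synthase subunit, had no strand and was counted only where either end of a gene was used.

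ATAC-seq maps open chromatin as sites where the Tn5 transposase can insert sequencing adapters. The 6 libraries came from testis cells of mice at postnatal day 5 (Pnd 5) and their label was spermatogonia, the germ cells that divide by mitosis before meiosis begins. Per the study's methods, all mice shared 1 inbred strain background, somatic cells were depleted by differential plating, and the cell suspension was checked for PLZF, the product of Zbtb16. The S7KO group held 3 libraries from Sirt7-/- mice, in which SIRT7, a histone deacetylase, is missing in every cell type and not only in germ cells. The WT group held 3 libraries from wild-type mice, with no other agent or allele in either group. Each library was made from 50000 cells. The study describes 3 independent biological replicates per genotype, while the labels do not tie libraries to mice, so p-values here measure the spread between libraries. The contrast asked whether loss of SIRT7 altered chromatin accessibility.

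OXPHOS couples the oxidation of NADH and succinate to the synthesis of ATP. Complex I (NADH dehydrogenase), complex II (succinate dehydrogenase), complex III (cytochrome bc1) and complex IV (cytochrome c oxidase) pass electrons to oxygen, and the proton gradient that complexes I, III and IV build drives complex V, the ATP synthase. Except for complex II, each complex mixes subunits encoded in the mitochondrial genome with subunits encoded in the nucleus. Only the nuclear genes were examined here, since the authors removed mitochondrial reads. Complex IV has subunits with paralogs that are used in particular tissues, and testis forms of subunits 6b, 7b and 8 are known from germ cells. The nuclear factors NRF1, GABP (an ETS factor) and YY1 are known regulators of nuclear OXPHOS genes.

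The lists held between 105728 and 133663 peaks on these chromosomes, with the fewest in WT replicate 2. Peaks were compared by presence and by width, and by rank, which is the position of a peak by its −log10 q within its own list, where 1% means among the strongest 1%. A peak was assigned to a gene when it lay within 1 kb of the gene's 5′ end. The libraries were checked against marker genes. Of 12 germ cell and spermatogonia markers, 11 had a promoter peak in all 6 libraries, Zbtb16, Gfra1, Id4 and Kit among them, and Nanos2 had none in any library. All 6 Sertoli cell markers and all 4 peritubular markers also had a peak in all 6 libraries, as did 2 of 5 Leydig cell markers, so promoter peaks did not set the labelled cell type apart from these somatic cells. Among 6 markers of haploid germ cells, Prm1, Prm2, Tnp2 and Acrv1 had no peak in any library, while Tnp1 (519 to 858 bp) and Spaca1 (902 to 1264 bp) had one in all 6. Sirt7 itself had a promoter peak of 1212 to 2113 bp in all 6 libraries, which does not check the deletion, because a promoter peak can stand in front of a gene that makes no protein.

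The promoters of 3 subunit families of complex IV are shown first, because the paralogs within each differ in CpG content there. Only the 6b and 7b families are shown with a testis form. Each run is a RefSeq promoter of GRCm38.p6, from 250 bases before a transcript start to 50 bases after it, read 5′ to 3′ on the gene's strand, with CpG dinucleotides in capitals. Cox6b1 (chr7:30626065-30626364, minus strand) encodes the broadly used subunit 6b and Cox6b2 (chr7:4753045-4753344, minus strand) the testis form. Cox7b (chrX:106015450-106015749, plus strand) and Cox7b2 (chr5:71548156-71548455, minus strand) form a like pair. Cox8a (chr19:7217567-7217866, minus strand) is the broad form of subunit 8 and Cox8b (chr7:140900397-140900696, minus strand) the form of heart and skeletal muscle.
Cox6b1: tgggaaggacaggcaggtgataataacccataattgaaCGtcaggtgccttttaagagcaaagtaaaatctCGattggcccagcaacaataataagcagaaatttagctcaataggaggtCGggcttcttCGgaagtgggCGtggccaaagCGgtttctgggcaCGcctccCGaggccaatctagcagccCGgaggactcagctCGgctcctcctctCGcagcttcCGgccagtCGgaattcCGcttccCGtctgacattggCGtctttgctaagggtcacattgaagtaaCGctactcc
Cox6b2: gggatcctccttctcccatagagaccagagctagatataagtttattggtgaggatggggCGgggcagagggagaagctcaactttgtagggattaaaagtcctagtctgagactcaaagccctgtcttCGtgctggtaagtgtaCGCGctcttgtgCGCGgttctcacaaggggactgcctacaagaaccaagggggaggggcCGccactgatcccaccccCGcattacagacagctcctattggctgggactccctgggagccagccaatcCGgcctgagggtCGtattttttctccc
Cox7b: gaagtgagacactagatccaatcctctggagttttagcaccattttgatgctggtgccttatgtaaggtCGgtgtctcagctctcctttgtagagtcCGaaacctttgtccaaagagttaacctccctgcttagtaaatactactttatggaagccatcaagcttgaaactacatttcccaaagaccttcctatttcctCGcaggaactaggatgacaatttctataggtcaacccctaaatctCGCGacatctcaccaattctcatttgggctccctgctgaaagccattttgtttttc
Cox7b2: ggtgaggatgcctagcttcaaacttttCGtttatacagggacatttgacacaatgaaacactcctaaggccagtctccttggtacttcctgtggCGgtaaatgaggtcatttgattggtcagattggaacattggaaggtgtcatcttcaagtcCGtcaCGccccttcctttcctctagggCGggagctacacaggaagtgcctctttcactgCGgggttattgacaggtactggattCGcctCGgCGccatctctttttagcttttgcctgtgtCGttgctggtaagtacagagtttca
Cox8a: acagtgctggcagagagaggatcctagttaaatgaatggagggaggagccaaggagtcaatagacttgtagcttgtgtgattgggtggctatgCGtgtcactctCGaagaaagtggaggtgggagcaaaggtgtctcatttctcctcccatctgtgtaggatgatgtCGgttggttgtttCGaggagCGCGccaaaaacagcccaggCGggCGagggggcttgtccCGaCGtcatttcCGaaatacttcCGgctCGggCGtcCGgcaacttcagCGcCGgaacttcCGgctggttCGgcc
Cox8b: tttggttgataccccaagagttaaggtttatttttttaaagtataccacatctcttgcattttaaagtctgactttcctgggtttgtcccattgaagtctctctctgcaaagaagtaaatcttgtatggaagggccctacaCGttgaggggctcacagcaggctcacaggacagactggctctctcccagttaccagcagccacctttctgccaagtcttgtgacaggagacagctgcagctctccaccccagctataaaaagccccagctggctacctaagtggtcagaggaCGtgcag
Cox6b1 held 17 CpG in 300 bases and Cox6b2 held 10, Cox7b held 5 and Cox7b2 held 10, and Cox8a held 19 and Cox8b held 2. The ratio of observed to expected CpG was 0.81 for Cox6b1, 0.43 for Cox6b2, 0.37 for Cox7b, 0.56 for Cox7b2, 0.84 for Cox8a and 0.11 for Cox8b. Over the 85 members with a promoter in the table the median ratio was 0.83, against 0.58 over all 17492 genes with one and 0.74 over the 11702 of them with a peak in all 6 libraries. The testis form was thus poorer in CpG than its partner in the 6b family and richer in the 7b family. Cox8c, the testis form of subunit 8, was named in the gene table only.

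Most OXPHOS promoters were open in every library. Of the 104 members, 99, 99 and 97 had a peak within 1 kb of the 5′ end in S7KO replicates 1, 2 and 4, and 97 had one in each of the 3 WT libraries. This was 93.3 to 95.2% of the members, beside 69.1 to 70.8% of all protein-coding genes. Genes of mitochondrial ribosomal proteins (Mrpl and Mrps) had like shares, of 96.2% in every library. For genes of cytosolic ribosomal proteins (Rpl and Rps) the share was 93.1% in every library. A peak in all 6 libraries was present at 97 members (93.3%), beside 68.1% of all genes. The mean count was 98.3 ± 1.15 (SD, n = 3) in S7KO and 97 in WT with no spread, a difference of 1.33 genes. That difference came from weak peaks, such as those of Cox8b described below, and fell to 0 when peaks with a −log10 q under 3 were left out or when the lists were cut to an equal number of peaks. Complex II was complete, with a peak at Sdha, Sdhb, Sdhc and Sdhd in all 6 libraries. So were the 17 assembly factors, namely Ndufaf1 to Ndufaf8 of complex I and Cox10, Cox11, Cox14 to Cox20 of complex IV, which help to build the complexes without staying in them.

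The peaks sat on the 5′ end more closely than those of other genes. Across libraries, 96.0 to 98.0% of the members' peaks covered the 5′ end itself, beside 88.0 to 89.2% of the peaks of all genes, and 93 members had the 5′ end covered in all 6 libraries. The shares were between these, at 92.0 to 93.3% for Mrpl and Mrps genes and 91.4 to 92.6% for Rpl and Rps genes. At 1000 bp downstream, 11.5 to 13.5% of members lay under a peak, beside 24.4 to 28.0% of all genes, whereas at 1000 bp upstream the shares were 11.5 to 13.5% and 7.98 to 10.3%. The median member peak in all 6 libraries reached 566 bp upstream and 670 bp downstream of the 5′ end, beside 508 and 858 bp over the 14629 genes with a peak in all 6 libraries. A short downstream reach was also seen at genes of mitochondrial (Mrpl and Mrps) and cytosolic (Rpl and Rps) ribosomal proteins. Their median reach downstream was 609 and 624 bp. At 1000 bp downstream, 15.4 to 20.5% and 12.6 to 16.1% of them lay under a peak. These are descriptions of gene sets, and the difference between sets was not tested.

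**Figure D1:**
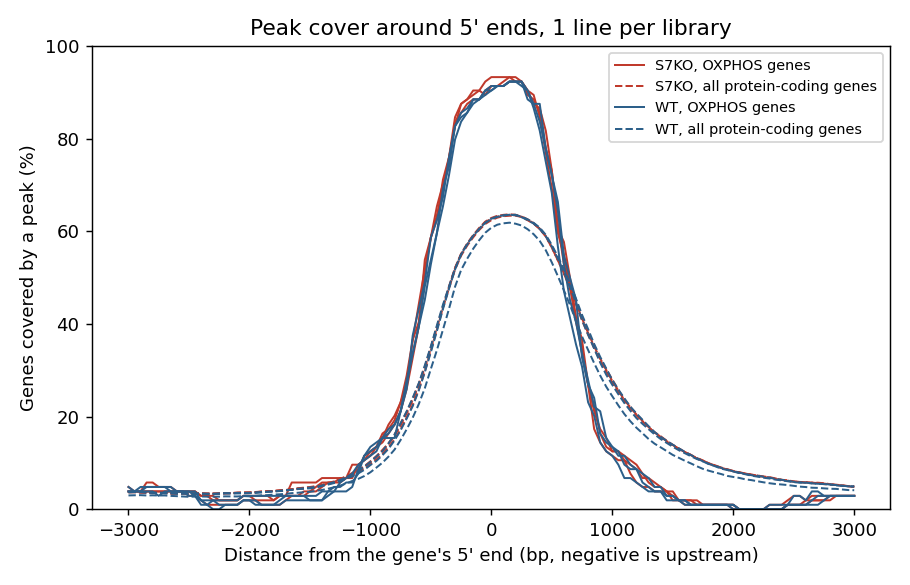
Percent of genes whose sequence is covered by a peak (y axis) at each distance from the 5′ end in bp (x axis, negative is upstream), with 1 line per library, solid for the 104 OXPHOS genes and dashed for 21467 protein-coding genes. The solid lines stand at 90.4 to 93.3% on the 5′ end, above the dashed lines at 60.8 to 62.9%, and fall below them at 1000 bp downstream.

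There were 7 members that lacked a peak in at least 1 library, and at some of them a strong peak stood elsewhere in the gene. Cox5a and Cox7a2, which encode complex IV subunits 5a and 7a2, had no peak within 1 kb of the outermost RefSeq 5′ end in any library. The RefSeq transcript start in the promoter table lay 3904 bp further into Cox5a and 11569 bp further into Cox7a2, and a peak covered that start in all 6 libraries. Its width was 1299, 1371 and 1261 bp in S7KO and 1294, 1328 and 1278 bp in WT at Cox5a. At Cox7a2 it was 1031, 1059 and 1064 bp in S7KO and 1037, 1044 and 1057 bp in WT, and this peak ranked within the strongest 0.29 to 1.06% of each list. Widths of the genotypes overlapped at both starts. Counted with any RefSeq transcript start, 101, 101 and 99 members had a peak in S7KO and 99 in each WT library.

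Cox8b, the heart and muscle form of subunit 8, had a peak of 990 bp in S7KO replicate 1 and of 197 bp in S7KO replicate 2, at ranks of 94.3% and 90.2%, and none in the other 4 libraries. No member had a peak in all 3 libraries of one genotype and in none of the other, a pattern that 0.0326% of all protein-coding genes showed for S7KO and 0% for WT.

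Also without a peak in any library were Ndufb4b and Ndufb4c, copies of the complex I subunit gene Ndufb4, and Uqcrc1, a core subunit of complex III. The nearest peak lay 8039 to 14374 bp from Ndufb4b and 3112 to 3258 bp from Ndufb4c, while Ndufb4 itself had a peak in all 6 libraries. Whether reads could be placed on the copies was not tested. Uqcrc1 (plus strand, 5′ end at base 108936648 of chromosome 9) lay in a stretch of 168758 to 168935 bp without a listed peak in any library, which also held the 5′ ends of Nckipsd, Celsr3, Slc26a6 and Tmem89. Gaps of that length or longer made up 0.945 to 1.64% of the gaps between neighbouring peaks. The lack of a peak at Uqcrc1 was thus shared by its neighbours. Whether the lists as used here are complete over this stretch could not be settled, so it was not read as a closed promoter, and Uqcrc1 may be wrongly counted among the members without a peak.

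Member peaks were strong but of modest width. By rank, the median member peak stood at 2.99 to 4.31% of its list, beside 7.30 to 9.41% for all genes with a peak. Among the 97 members with a peak in all 6 libraries, 66 (68.0%) had a median rank within the strongest 5%, beside 37.1% of the 14629 such genes. Their mean width over libraries had a median of 1251 bp, with quartiles of 1115 and 1458 bp, beside a median of 1430 bp over all genes. In all, 69 members (71.1%) were narrower than that gene median, and 5 (5.15%) were wider than 2000 bp, beside 18.2% of all genes. The mitochondrial ribosomal protein genes (Mrpl and Mrps, 75 with a peak in all 6 libraries) and the cytosolic ones (Rpl and Rps, 81) had like values, with median widths of 1219 and 1223 bp. Their median ranks across libraries were also alike, at 3.16 to 4.61% for Mrpl and Mrps and 3.20 to 4.13% for Rpl and Rps.

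The complexes resembled each other. The median width was 1238 bp over 44 members of complex I, 1183 bp over 4 of complex II, 1337 bp over 7 of complex III, 1221 bp over 26 of complex IV and 1216 bp over 16 of complex V. Within complex I, the 6 core subunits with a peak had a median of 1372 bp. Among them are the subunits that carry the flavin and iron-sulfur centres. The median was 1185 bp over the 30 accessory subunits and 1326 bp over the 8 assembly factors. Single members spread more widely than these medians, from 548 to 2845 bp.

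The widest mean peak was that of Atp5g2, which encodes a form of the c subunit of the ATP synthase rotor, at 2845 bp. Its width was 3637, 3670 and 2263 bp in S7KO replicates 1, 2 and 4 and 3705, 2190 and 1605 bp in WT replicates 1, 2 and 4. The libraries were thus split between a wide and a narrower call, and both genotypes held either kind. Ndufa13, an accessory subunit of complex I, followed at 2464, 2429 and 2425 bp in S7KO and 2456, 2396 and 2412 bp in WT, and Uqcrh, the hinge subunit of complex III, had a mean of 2375 bp. The narrowest were Cox6a2, Cox7b and Cox8c, with means of 548, 625 and 710 bp.

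The testis forms of complex IV subunits had open promoters in all 6 libraries, beside open promoters of their broadly used partners. Cox6b2 had a peak of 1561, 1624 and 1539 bp in S7KO and 1577, 1419 and 1714 bp in WT. Cox6b1 had a peak of 826, 1019 and 994 bp in S7KO and 806, 823 and 841 bp in WT. The testis form was wider than its partner in every library, without overlap of the 6 libraries of one gene with those of the other, while each gene's own S7KO and WT widths overlapped. Both ranked high, with a median of 3.74% for Cox6b2 and 3.46% for Cox6b1.

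Cox7b2 had a peak of 1567, 1567 and 1447 bp in S7KO and 1552, 1572 and 1534 bp in WT. Cox7b, which lies on chromosome X, had a peak of 603, 746 and 671 bp in S7KO and 628, 458 and 645 bp in WT. The testis form was again the wider one in every library. It was also the stronger one, at a median rank of 8.82% against 34.9%. In subunit 8 the order was the other way. Cox8c had a peak of 727, 728 and 704 bp in S7KO and 707, 667 and 725 bp in WT, and Cox8a one of 1048, 1073 and 1062 bp in S7KO and 1077, 1067 and 1077 bp in WT, with median ranks of 25.8% and 0.323%. Width differences between different genes were not tested.

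None of the 3 testis forms shared its promoter with another protein-coding gene. The nearest other 5′ end lay 13002 bp from Cox6b2 (Kmt5c), 109716 bp from Cox7b2 (Gabrb1) and 20835 bp from Cox8c (Btbd7). Between genotypes, the log2 width difference (S7KO minus WT) was 0.01 ± 0.07 (SE) for Cox6b2, -0.02 ± 0.04 for Cox7b2 and 0.04 ± 0.06 for Cox8c, with adjusted p-values of 0.999, 0.989 and 0.987 (limma, Benjamini-Hochberg over 14629 promoters). All 3 differences were smaller than their standard error.

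The forms known from other tissues were open as well, except for Cox8b. Cox4i2, the lung and hypoxia-linked form of subunit 4, had a peak of 1138, 1042 and 1178 bp in S7KO and 1309, 1049 and 1045 bp in WT at a median rank of 46.5%, while Cox4i1 stood at 3.81%. Cox6a2, a heart and muscle form, had a peak of 651, 554 and 629 bp in S7KO and 538, 446 and 468 bp in WT at a median rank of 45.3%, beside 6.96% for Cox6a1, whose peak measured 1995 to 2064 bp. Cox7a1, also a heart and muscle form, had a peak of 988, 980 and 991 bp in S7KO and 984, 992 and 1174 bp in WT. Ndufa4l2, a hypoxia-linked paralog of Ndufa4, ranged from 1349 to 1682 bp, and Ndufa4 from 1377 to 1447 bp. Among the muscle markers, Myh2 had no peak in any library and Ckm had one in 4, while Actn3 and Tnnt3 had one in all 6. A promoter peak does not measure expression, and no RNA was examined here.

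**Figure D2:**
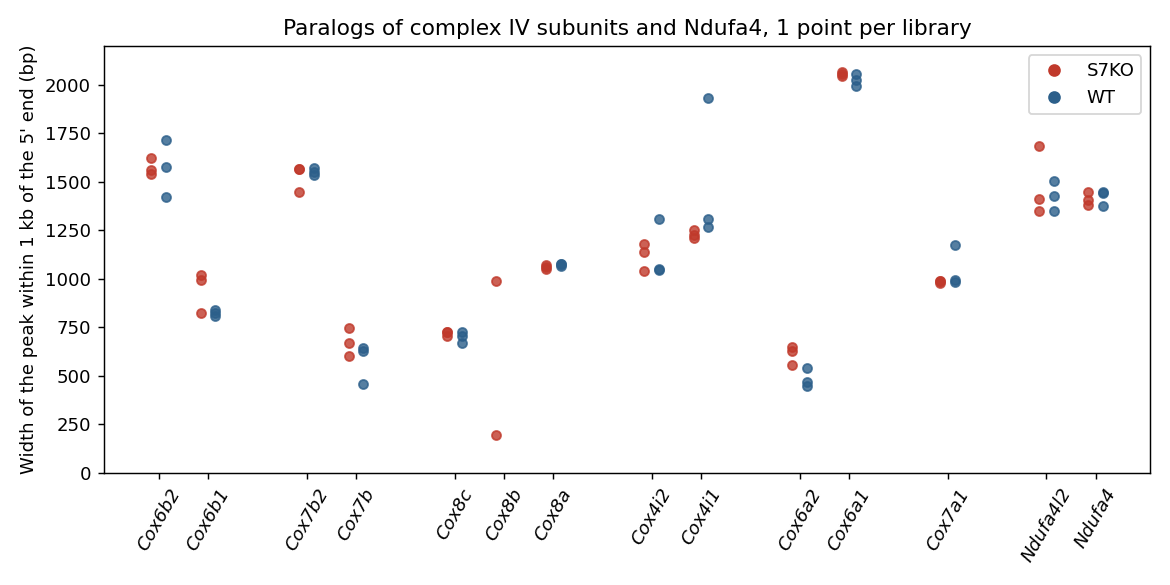
Width in bp (y axis) of the peak within 1 kb of the 5′ end for tissue-linked members and their broadly used paralogs (x axis), with 1 point per library, red for S7KO and blue for WT. Cox6b2 and Cox7b2 lie above Cox6b1 and Cox7b in every library, Cox8c lies below Cox8a, and Cox8b has points in 2 S7KO libraries only.

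No OXPHOS promoter passed the test for a width difference between genotypes. Over the 14629 promoters with a peak in all 6 libraries, limma called 11 wider in S7KO (0.0752%) and 3 narrower (0.0205%) at an adjusted p under 0.05, and 0 of the 97 members tested were among either. At an unadjusted p under 0.05 there were 3 members (3.09%), beside 3.22% of all promoters. Over the members with a peak in each library, the median width was 1230 ± 19.7 bp (SD, n = 3) in S7KO and 1226 ± 27.5 bp in WT. This difference of 4 bp lay within the spread between libraries. Over the 97 members tested, the medians were 1237 ± 20.8 bp and 1226 ± 27.5 bp, a difference of 11 bp. The like difference over the 14629 promoters was 37.7 bp. The median log2 difference was 0.03 over members and 0.02 over all promoters, and 67.0% of members and 68.3% of all promoters were wider in S7KO by any amount. The common shift moved with WT replicate 2, the list with the fewest peaks, whose median over all genes was 1318 bp against 1397 to 1445 bp in the other 5 lists. Without that library the median log2 difference was 0.004 over members and -0.001 over all promoters.

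The smallest p among members was that of Ndufs5, an accessory subunit of complex I. Its peak measured 1146, 1154 and 1189 bp in S7KO and 1019, 1007 and 1006 bp in WT, so that every S7KO library was wider than every WT library. The log2 difference was 0.20 ± 0.03 (SE), a fold of 1.15, with an unadjusted p of 0.00127 and an adjusted p of 0.580 (limma). The next was Atp5pb, the b subunit of the ATP synthase stalk, which measured 1198, 1214 and 1182 bp in S7KO and 1283, 1320 and 1302 bp in WT. Here every S7KO library was narrower, with a log2 difference of -0.12 ± 0.03 (SE) and an adjusted p of 0.987. Cox6a2 was the third, with a log2 difference of 0.34 ± 0.11 (SE) and an adjusted p of 0.987. An exact two-sided permutation test over 3 and 3 libraries gave p = 0.1 for each of these genes, the smallest value that it can give.

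In all, the widths of the genotypes did not overlap at 10 members. Of the 97, 8 (8.25%) had their 3 S7KO widths above the 3 WT widths, beside 6.86% of all promoters, and 2 (2.06%) had them below, beside 1.65%. Both shares were near those of all promoters. With widths centred in each library, 2 members were wider and 4 narrower without overlap, and the shares of all promoters were not counted there. Without centring, the wider ones were Ndufs1, Ndufs5, Ndufa3, Ndufa5 and Ndufb11 of complex I, Uqcrb and Uqcrh of complex III and Cox6a2 of complex IV. The narrower ones were Cox4i1 and Atp5pb. Most of these differences were small. Ndufs1, the largest core subunit of complex I, measured 1522, 1478 and 1473 bp in S7KO and 1365, 1451 and 1460 bp in WT, a fold of 1.05. Uqcrh measured 2485, 2409 and 2352 bp in S7KO and 2328, 2344 and 2331 bp in WT, a fold of 1.03.

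In some members 1 library set the difference. Uqcrb, a small subunit of complex III, measured 1013, 1010 and 1406 bp in S7KO and 977, 998 and 1006 bp in WT, so that S7KO replicate 4 alone stood apart. Cox4i1, the broad form of subunit 4, measured 1226, 1252 and 1208 bp in S7KO and 1932, 1307 and 1265 bp in WT, where WT replicate 1 stood apart, and had the most negative log2 difference among members, -0.26 ± 0.17 (SE). Ndufa7, an accessory subunit of complex I, had a log2 difference of -0.22 ± 0.28 that changed sign to 0.08 without WT replicate 2, whose peak measured 1447 bp while the other 5 libraries held 728 to 926 bp. Ndufs7, a core subunit, had one of -0.17 ± 0.19 that changed sign to 0.04 without WT replicate 4, at 1878 bp beside 1160 to 1312 bp in the other 5.

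The other large differences were also within the spread between libraries. Atp5g2, with the split described above, had the most positive log2 difference, 0.40 ± 0.36 (SE). Atp5h, the d subunit of the ATP synthase stalk, measured 2095, 2223 and 2104 bp in S7KO and 1521, 1537 and 2170 bp in WT, and WT replicate 4 overlapped the S7KO libraries. Ndufc2, an accessory subunit of complex I, measured 2048, 2101 and 2188 bp in S7KO and 1734, 2100 and 1349 bp in WT, where WT replicate 2 lay in the S7KO range. Atp5d, the delta subunit of the catalytic part, measured 727, 715 and 875 bp in S7KO and 1031, 793 and 864 bp in WT at the outermost 5′ end, where its peak ranked at a median of 54.0%. The RefSeq transcript start of Atp5d nearest to that end lay 3577 bp further in, under a peak of 1647, 1691 and 1672 bp in S7KO and 1633, 1623 and 1576 bp in WT. The weak outer site thus differed more between libraries than the peak at the transcript start.

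**Figure D3:**
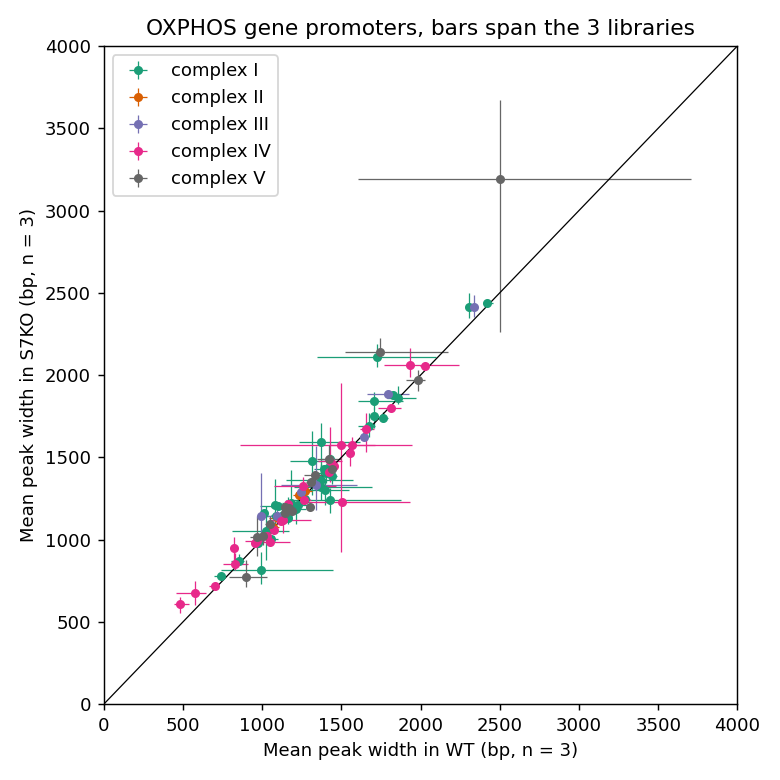
Mean peak width in S7KO (y axis, bp) against that in WT (x axis, bp) for the 97 members with a peak in all 6 libraries, coloured by complex, with bars from the lowest to the highest of 3 libraries and a line of equal width. Most points lie on the line, and the point farthest to the upper right is Atp5g2, whose bars cross it.

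**Figure D4:**
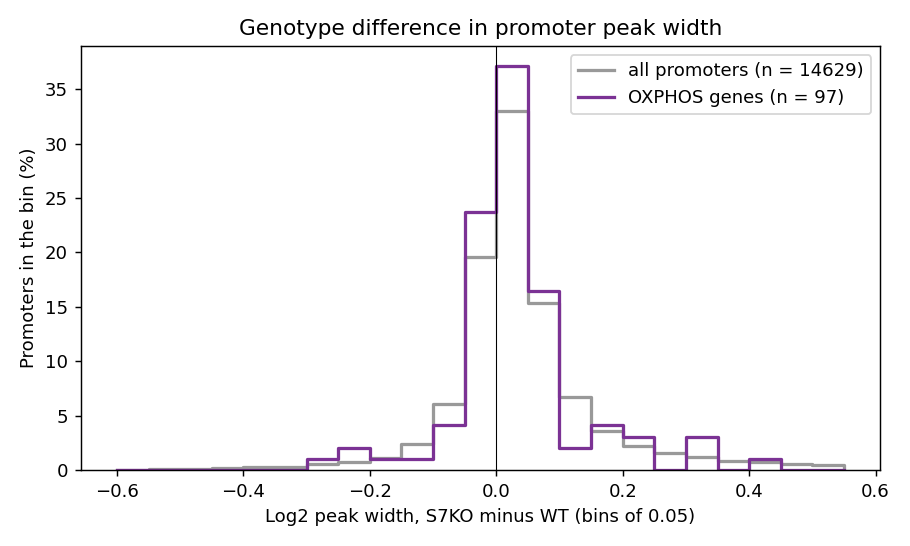
Percent of promoters (y axis) in bins of 0.05 of the log2 width difference, S7KO minus WT (x axis), for 97 OXPHOS genes and for all 14629 promoters tested. Both outlines peak just above 0, and 1.74% of all promoters and no member lie outside the range drawn, which ends at 0.6 on either side.

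OXPHOS genes often had the 5′ end of another gene close by, and whether the genes diverged or overlapped was not counted. Another protein-coding 5′ end lay within 1 kb at 37 of 104 members (35.6%), each on the opposite strand, beside 2416 of 21467 genes (11.3%). The share was 42.3% for Mrpl and Mrps genes and 16.1% for Rpl and Rps genes. The median distance between such ends was 64 bp, and at 36 of the 37 a single peak covered both ends in all 6 libraries. Ndufa5 was the exception, where a single peak reached the end of Asb15, 454 bp away, in 1 library. A peak at these members cannot be assigned to one gene of the pair. Members with a shared promoter had a median width of 1281 bp and the 60 others of 1178 bp, beside 1443 and 1427 bp for the 2308 and 12321 genes of each kind.

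Some partners belong to mitochondria or to gene expression themselves. Ndufs6 lay 21 bp from Mrpl36 and Ndufb5 lay 302 bp from Mrpl47, both of which encode proteins of the mitochondrial ribosome. Sdhd, a membrane anchor of complex II, lay 52 bp from Timm8b, a chaperone of mitochondrial import. Ndufs1 lay 9 bp from Eef1b2, a translation elongation factor, and Ndufa7 lay 10 bp from Rps28 of the cytosolic ribosome. Atp5j, a subunit of the ATP synthase stalk, lay 966 bp from Gabpa, which encodes the DNA-binding part of GABP, and 1 peak covered both ends in all 6 libraries. Uqcrq of complex III lay 57 bp from Gdf9, a growth factor known from the oocyte, so the peak there does not show that Gdf9 is in use.

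Motifs of known OXPHOS regulators were searched on both strands in the promoter nearest to each gene's 5′ end. The NRF1 core (GCGCATGC) was found in 12 of 85 members (14.1%), beside 3.61% of all 17492 promoters and 5.01% of the 11702 with a peak in all 6 libraries. The ETS motif (CCGGAAG), which GABP and other ETS factors bind, was found in 27.1% of members, beside 11.9% and 16.2%. The YY1 motif (AAGATGGC) was found in 14.1%, beside 3.21% and 4.07%, and the TATA motif (TATAAA) in 10.6%, beside 13.3% and 7.53%. At least 1 of the first 3 motifs was present in 39 members (45.9%), beside 17.3% and 23.2%. Mrpl and Mrps promoters held the NRF1 core in 11.6%, the ETS motif in 34.8% and the YY1 motif in 17.4%, and Rpl and Rps promoters in 2.99%, 34.3% and 8.96%. The ETS and YY1 motifs can share the letters AAG, so that 1 stretch can count for both. A match describes letters and not a bound factor.

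Cox6a1 (chr5:115348909-115349208, minus strand) and Sdhb (chr4:140961021-140961320, plus strand), which encodes the iron-sulfur subunit of complex II, are shown as examples. Each holds both the NRF1 core and the ETS motif, as do some other members. Matches to these motifs are in capitals.
Cox6a1: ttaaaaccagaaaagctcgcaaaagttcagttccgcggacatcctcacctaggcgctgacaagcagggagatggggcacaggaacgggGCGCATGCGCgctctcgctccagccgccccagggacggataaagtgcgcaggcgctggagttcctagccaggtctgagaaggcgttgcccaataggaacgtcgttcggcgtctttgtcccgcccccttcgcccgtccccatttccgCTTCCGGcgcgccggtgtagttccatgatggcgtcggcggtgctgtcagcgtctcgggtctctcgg
Sdhb: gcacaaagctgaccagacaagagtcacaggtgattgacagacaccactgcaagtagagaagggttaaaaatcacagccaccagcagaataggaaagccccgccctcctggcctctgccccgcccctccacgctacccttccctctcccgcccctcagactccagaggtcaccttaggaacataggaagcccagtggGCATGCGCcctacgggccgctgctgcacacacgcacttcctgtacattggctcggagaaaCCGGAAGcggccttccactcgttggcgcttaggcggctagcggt
In Cox6a1 the NRF1 core matched on both strands at overlapping bases, which makes a longer run of capitals. The peak over the Sdhb promoter measured 1128, 1122 and 1138 bp in S7KO and 1126, 1044 and 1133 bp in WT, and its ranks were 2.85 to 4.88%. The peak at Cox6a1 measured 2064, 2054 and 2047 bp in S7KO and 1995, 2055 and 2026 bp in WT. Widths overlapped between genotypes at both. Cox6b2 held none of the NRF1, ETS and YY1 motifs, and neither did Cox7b2, which held the TATA motif. Among the broad forms, Cox6b1 and Cox8a held the ETS motif, while Cox7b held none of the NRF1, ETS, YY1 and TATA motifs.

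**Figure D5:**
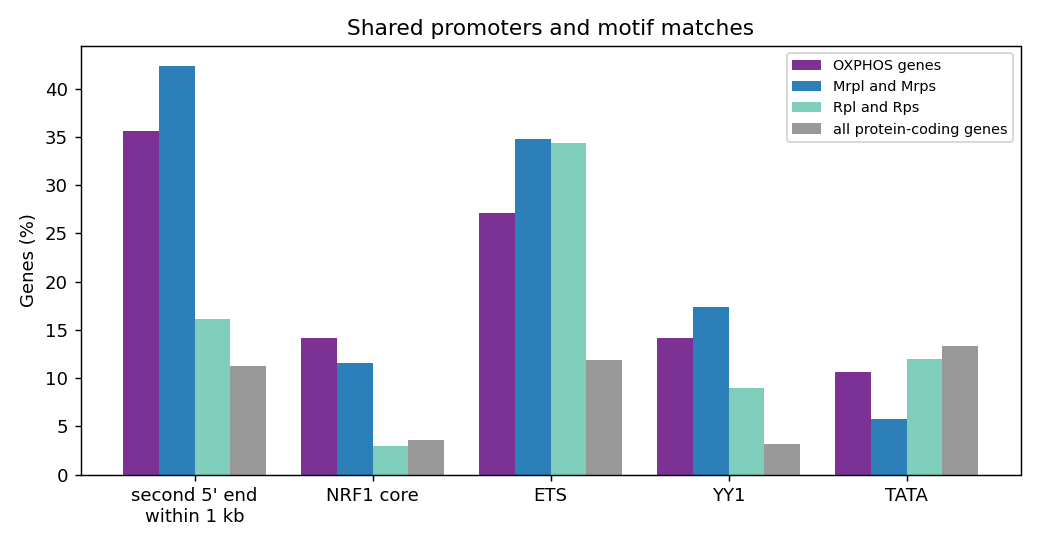
Percent of genes (y axis) with another protein-coding 5′ end within 1 kb, and percent of promoters with a match to each of 4 motifs (x axis), for OXPHOS genes, Mrpl and Mrps genes, Rpl and Rps genes and all protein-coding genes. The OXPHOS bars stand above the bars of all genes for the second 5′ end (35.6% against 11.3%) and for NRF1, ETS and YY1, and below for TATA.

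Most other genes of the pathway had a promoter peak as well. All 11 genes of electron carriers and other entries to the chain, such as Cycs and Cyc1, had a peak in all 6 libraries, with a median width of 1247 bp. So did all 13 genes of the tricarboxylic acid cycle (1319 bp) and 29 of 30 further assembly factors (1240 bp), where Atpaf2 had none within 1 kb. Of 16 nuclear regulators, 14 had a peak in all 6 libraries, Nrf1, Gabpa, Yy1, Esrra and Tfam among them, with a median width of 1521 bp, above the 1430 bp of all genes. Gabpb1 had none within 1 kb and Mterf1a had one in 2 WT libraries. Other transcript starts of Atpaf2 and Gabpb1 were not examined, so their lack of a peak at the outermost 5′ end was not read as a closed promoter. In these 4 lists limma called 0 promoters at an adjusted p under 0.05, and 2 reached an unadjusted p under 0.05.

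The testis forms of other energy enzymes had promoter peaks too, though not all of them strong. Cyct, Pdha2, Slc25a31, Ldhc, Pgk2 and Gapdhs each had a peak in all 6 libraries, with a median rank of 22.1%, beside 9.54% for 5 of the 6 somatic partners. By gene, the median rank ran from 7.90% for Cyct to 80.5% for Gapdhs, whose peak was thus weak. Gapdhs, the sperm form of the glycolytic enzyme GAPDH, had the narrowest, of 431, 567 and 517 bp in S7KO and 352, 215 and 478 bp in WT, while Gapdh ranged from 2569 to 2911 bp. Slc25a31, the testis ATP/ADP carrier, had the widest of the testis forms, of 1724, 1780 and 1697 bp in S7KO and 1633, 1687 and 1679 bp in WT. Its S7KO libraries were all wider than its WT libraries, and its log2 difference did not pass the test. The sixth somatic partner, Ldha, had no peak within 1 kb of its outermost 5′ end.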

How the data were processed

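ATAC-seq was done on 3 S7KO and 3 WT samples of Pnd 5 spermatogonia. Per the study, the authors trimmed reads (Trim Galore 0.6.6), aligned them to mm10 (Bowtie2 2.4.4.1), kept uniquely mapped reads (SAMtools 1.19.2), removed duplicates and mitochondrial reads, shifted ends for the Tn5 cut, selected fragments by length and called broad peaks per library with MACS2 2.2.5. The deposited lists give coordinates, a display score, a fold enrichment (a ratio), and −log10 p-values and q-values per peak, as the authors' peak caller wrote them. The −log10 q-value was used to rank and filter peaks within a list. The score, the fold and the p-value were not used. The lists give no read counts, so depth is unknown and the authors' count-based comparison (DiffBind) was not repeated. A wider peak can follow from more reads as well as from wider open chromatin, and these cannot be told apart here.

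Gene ends came from RefSeq (GRCm38.p6). The strand came from the RefSeq promoter table for 17492 protein-coding genes and from GENCODE by symbol for 3975. Where both gave one, 99.4% were the same. For each gene and library the peak nearest to the 5′ end within 1 kb was taken. Log2 widths of the 14629 promoters with a peak in all 6 libraries were compared between genotypes with limma 3.58.1 (R 4.3.3, mean-variance trend, no covariate), with Benjamini-Hochberg adjustment over all of them and a threshold of 0.05. The fit was tested on simulated widths, where the changes put in were larger than any found among the members. That test does not tell whether changes of the members' size would be called. Single genes were compared by an exact permutation test (scipy 1.17.1). Gene sets are described by counts and medians, with no test.

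The symbol rule uses no measured value, but the members, lists and tests were chosen with earlier results of these data known. The genes named were members without a peak in some library, tissue-linked paralogs and their partners, members called by limma, the 3 widest and 3 narrowest, the 5 largest differences in each direction, and members whose widths did not overlap. Sdhb and the partner genes of shared promoters were chosen after their values were seen, as were the other pathway genes named as examples. The values of 1 gene that the rule names are not reported here. Replicates are named by their titles (1, 2 and 4). A second label gives other numbers. Alternatives were a −log10 q of at least 3, equal numbers of peaks, windows of 500 bp and 3 kb, the widest peak, the bases covered, either gene end, a peak over the 5′ end, widths centred per library, a peak in at least 2 of 3 libraries, a replicate block and leaving out each library.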

Additional observations from a re-analysis of the deposited data

How the results depend on the processing

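The number of members with a peak, S7KO minus WT, was 1.33 and moved to 0 with a −log10 q of at least 3 and with equal numbers of peaks, because weak peaks, such as those of Cox8b, dropped out. It ranged from 1 to 2 when each library was left out and from 0.667 to 1.33 under the other alternatives. The difference in median width was 4 bp and became -22.9 bp with widths centred in each library. It ranged from -11 to 16 bp when each library was left out and from 4 to 11 bp otherwise. The number of promoters called was 14 and became 7 with the bases covered in the window. It ranged from 11 to 50 when each library was left out (without S7KO replicate 4, 43, without WT replicate 1, 50, without WT replicate 4, 37), and was 22 without WT replicate 2 with centred widths, an alternative chosen after seeing the data, as was the count with any RefSeq transcript start. The count of members with no overlap was 10 (8 wider and 2 narrower), near the shares of all promoters (6.86% and 1.65%). With centred widths the count became 6 (2 wider and 4 narrower). It ranged from 16 to 27 when each library was left out, where fewer libraries have to be separated. The shares of all promoters were not counted under these alternatives, so their counts are not read as a trait of the members. No member was called in any of the 17 fits (the lowest adjusted p was 0.0607, without WT replicate 4), with 3 to 5 members at an unadjusted p under 0.05 in each. Of 272 values of 17 named members under alternatives, 3 changed sign. Ndufa7 became 0.0834 without WT replicate 2 and 0.0835 there with centring, and Ndufs7 became 0.0422 without WT replicate 4. When each library was left out, they ranged from -0.401 to 0.0834 and from -0.292 to 0.0422. The cause was not tested.

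Deviations from the genotype means were weakly correlated between same-numbered libraries (0.07, -0.01 and 0.11). Between libraries with different numbers the correlations ran from -0.103 to 0.0183. Weak correlations of this kind cannot decide whether the replicate numbers pair the libraries. With a replicate block limma called 0 promoters (425 at an unadjusted p under 0.05), and the differences in member count and median width kept their values of 1.33 and 4 bp. The lists hold no counts, so depth, which can set width, limits what a width difference shows.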

Other observations

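The gene table also holds 20 pseudogenes with symbols of the same form as the members. A peak lay within 1 kb of either end in all 6 libraries at 5 of them (25%) and in no library at 10, beside 13.8% in all 6 libraries over 10609 pseudogenes. Their strand was not used. No sample group had 4 or more libraries, so no single library was tested for standing apart from its group.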
